A study of Macaca mulatta with 25 samples.

Results

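The genes described here code for the nuclear pore, the gate in the nuclear envelope, and for the machinery that carries proteins and RNA through it. They were chosen by name, as nucleoporins (the proteins that build the pore), the small GTPase Ran with its activator, and karyopherins (the import and export receptors). Of 39 listed genes 37 had an entry in the symbol table that pairs gene identifiers with names, and these 37 were among the 13934 genes tested, out of 35395 in the count table. SEH1L and POM121 were not analysed here. The libraries came from rhesus macaque blastocysts, the hollow embryo stage just before implantation, grown in vitro for up to 8 days from eggs of females that had been treated from 2.5 years of age, before puberty, for 5 to 6 years. Females of the T group carried testosterone implants that raised circulating testosterone 3 to 5 times and ate standard chow, with 15% fat, 59% carbohydrate and 26% protein. The WSD group ate a Western-style diet, with 36% fat, 46% carbohydrate and 18% protein, and the TWSD group received the implants together with this diet. Control females (C) ate the chow and carried cholesterol implants. There were 10 T, 8 WSD, 2 TWSD and 5 C libraries. Of 10 females that started in each group, 7 T, 6 WSD, 3 TWSD and 10 C females could still undergo ovarian stimulation, the rest being kept from it by health problems, and the labels do not say which female or male stood behind which library, nor whether a library is a single embryo. The p-values therefore measure the spread between these libraries, which may share parents. In all groups eggs were matured by gonadotropin stimulation and fertilised in vitro, so no library is from an embryo conceived in the animal.

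The pore is built from rings of scaffold nucleoporins. A Y-shaped complex forms the outer rings on both faces, an inner ring holds the channel, and membrane nucleoporins anchor the whole in the envelope. Nucleoporins with phenylalanine-glycine repeats fill the channel, a basket reaches into the nucleus and filaments reach into the cytoplasm. Importins bind cargo in the cytoplasm and let go of it when Ran loaded with GTP binds them in the nucleus, and exportins take up their cargo together with that form of Ran. Embryos divide before implantation, and each division takes the envelope apart and builds it again with new pores.

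Total counts ran from 14219054 to 26753850 in T, 15005205 to 35544542 in WSD, 20381869 to 26710010 in TWSD and 15272016 to 27659266 in C. Levels below are CPM, counts set against a library total that was adjusted with TMM factors. Since CPM is not corrected for transcript length, levels are compared between libraries. The exception is the choice of 1 member to describe in each role class, which went by the highest mean CPM and is affected by transcript length. Blastocyst markers were present: CDX2 of the trophectoderm was at 33.8 to 182 CPM in T, 80.7 to 285 in WSD, 29.4 and 171 in TWSD, and 1.57 to 263 in C. POU5F1 of the epiblast was at 341 to 965 CPM in T, 242 to 706 in WSD and 444 and 406 in TWSD, against 1068 (C 1), 525 (C 2), 206 (C 8), 8.51 (C 11) and 0.63 CPM (C 12) in controls. C 11 and C 12 thus had hardly any POU5F1, and C 8 stood apart with them in the syncytiotrophoblast markers given below. C 1 was not typical either. Its trophectoderm markers summed to 1851 CPM, against 2131 in C 11 and 2492 in C 12, and its primitive endoderm markers to 673 CPM. Both sums of C 1 were the lowest of all 25 libraries. TWSD 2 stood apart from TWSD 3 among the transport genes. In bulk libraries fewer cells of a type and less RNA per cell cannot be told apart.

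Syncytiotrophoblast markers were high in C 8, C 11 and C 12, and the sum of unfolded protein response genes in TWSD 2, C 11 and C 12. In TWSD 2 most of that sum came from 1 gene, the chaperone HSPA5, as given below. The 9 measured syncytiotrophoblast markers summed to 97.7 to 4246 CPM in T, 96.8 to 550.4 in WSD, 59.1 to 73.1 in TWSD and 57.3 to 11860 in C. The high values were those of C 8 (11860), C 11 (3940), C 12 (8177) and T 1 (4246), and none of these 9 genes was without a count. Of the 8 tested, 1 was lower in T, 5 in WSD and 0 in TWSD (0 also higher) than in C. The 13 unfolded protein response genes summed to 2808 to 4294 CPM in T, 2336 to 6205 in WSD, 13660 in TWSD 2 and 2962 in TWSD 3. In the control libraries the sums were 3321 (C 1), 3518 (C 2), 4147 (C 8), 11670 (C 11) and 50120 CPM (C 12), and 9 of the 13 were lower in T, 9 in WSD and 0 in TWSD than in C. The 16 cell cycle genes summed to 5401 to 7286 CPM in T, 5858 to 8323 in WSD, 7293 to 10920 in TWSD and 2183 to 5470 in C, lowest in C 11, and 3 of the 16 were higher in each treatment than in C, with 0 lower. The 9 cumulus and granulosa markers summed to 258 to 851 CPM in T, 75.3 to 343 in WSD, 272 to 336 in TWSD and 183 to 2717 in C. Of the 5 tested, 1 was lower in T (VCAN), 2 in WSD (VCAN and CYP11A1) and 0 in TWSD than in C. The 6 sperm markers summed to at most 3.45 CPM in any library, with PRM2 and TNP2 at 0 throughout, and 0 of them could be tested. The 5 blood cell markers summed to 243 CPM in C 11 and to at most 21.7 elsewhere, and 1 of 3 tested (CD14) was lower in T and in WSD than in C. Without C 12 the unfolded protein response genes called lower were 3 in T, 2 in WSD and 0 in TWSD, the syncytiotrophoblast markers 0, 1 and 0, and the cell cycle genes called higher 0, 1 and 5. Without C 8, C 11 and C 12 these counts were 0 in T and in WSD for all 3 lists. Of 6 trophectoderm, 7 epiblast, 7 primitive endoderm and 7 oocyte genes tested, edgeR called 0 in any comparison with C. The part of these markers in the results below was not tested.

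**Figure D1:**
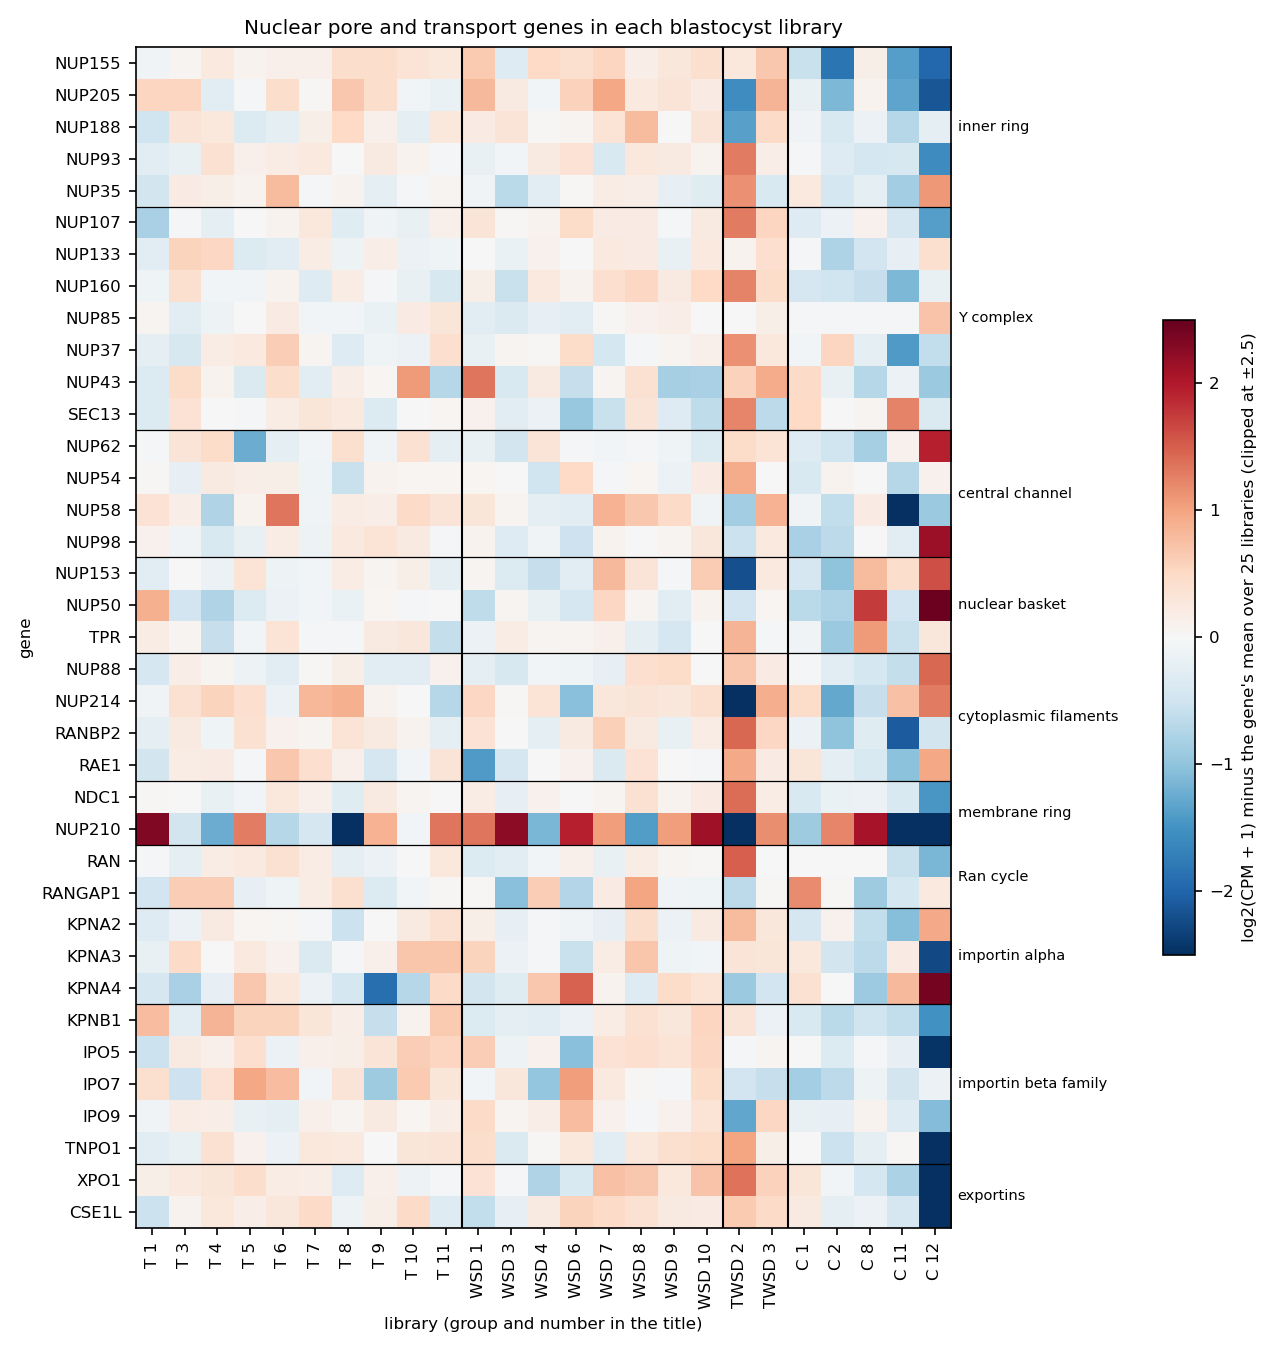
Level of each of 37 nuclear pore and transport genes (rows, grouped by role) in each of 25 libraries (columns; T, WSD, TWSD and C from left to right), as log2(CPM + 1) minus the gene's mean over all libraries. Red is above and blue below the gene's mean. TWSD 2 and C 12 are the columns of strongest colour, and C 12 is dark blue for IPO5, TNPO1, XPO1 and CSE1L and red for NUP62, NUP98, NUP50 and NUP88.

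A total of 8 of the 37 members were higher than in C in at least 1 treatment, and 0 were lower, by edgeR's quasi-likelihood test with adjusted p-values over all 13934 genes. Embryos of the T group had more NUP155 (2.15 times the level in C) and KPNB1 (2.10 times), of the scaffold and the import receptors. Embryos of the WSD group had more of the scaffold genes NUP155 (2.37 times) and NUP160 (1.70 times). Embryos of the TWSD group had more of the scaffold genes NUP93 (2.51 times), NUP107 (2.52 times) and NUP160 (2.71 times), the cytoplasmic filament gene RANBP2 (3.29 times), the membrane gene NDC1 (2.58 times) and RAN (2.32 times). The TWSD calls were lost without TWSD 2 and the T and WSD calls without C 12, and fits of only the groups compared called 0 members in all 3. Of all genes, 40 were called in T and 51 in WSD without C 12. The fits of only the groups compared called 114, 30 and 0 of all genes in T, WSD and TWSD. With library totals, and likewise with no filter on low counts, 2 of the 6 TWSD calls were kept (NUP160 and RANBP2). Of all genes tested, 0.337% were called higher in T, 0.466% in WSD and 0.861% in TWSD, and 3.77%, 3.6% and 0.337% were called lower. At an unadjusted p under 0.05, 10 members were higher and 2 lower in T, 13 and 2 in WSD, and 13 and 1 in TWSD. The shares of all genes at that level were 4.36% higher and 13.9% lower in T, 4.41% and 13.9% in WSD, and 8.66% and 13.3% in TWSD. DESeq2 called 3 members higher in T, 5 in WSD and 7 in TWSD, and 1 lower in T and 1 in WSD (NUP50 in both) and 0 in TWSD. Of the 13934 genes it called 1102, 1185 and 1995 in T, WSD and TWSD, both directions together, where edgeR called 573, 567 and 167. Limma voom with quality weights called 0 members in either direction in all 3 comparisons with C. The 3 comparisons share the same 5 control libraries.

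The median log2 change of the 37 members was 0.30 in T, 0.33 in WSD and 0.54 in TWSD against C, where the median over all genes tested was -0.12, -0.12 and -0.38. With DESeq2 size factors these medians of all genes were -0.19, -0.19 and -0.48 and those of the members 0.25, 0.28 and 0.40. With library totals they were 0.02, -0.01 and -0.38 for all genes and 0.41, 0.40 and 0.49 for the members. Single members ran from -1.22 to 1.11 in T, from -1.17 to 1.24 in WSD and from -1.79 to 1.72 in TWSD. Of all members 25 of 37 were above 0 in T, 24 in WSD and 27 in TWSD, where 43.8%, 43.4% and 39.5% of all genes tested were. By class, above 0 in T and in WSD were 4 of 5 inner ring genes, 5 of 7 Y complex genes, 2 of 4 channel genes, 0 of 3 basket genes, 2 of 2 membrane nucleoporins, 1 of 2 Ran cycle genes, 2 of 3 importin alpha genes, 5 of 5 importin beta genes and 2 of 2 exportins, and of 4 cytoplasmic genes 2 in T and 1 in WSD. In TWSD the counts were 5 for the inner ring, 6 for the Y complex, 2 for the channel, 1 for the basket, 3 for the cytoplasmic genes, 1 for the membrane, 1 for the Ran cycle, 2 for importin alpha, 4 for importin beta and 2 for exportins. With DESeq2 size factors the counts that differed were those of importin alpha (1 in T and in WSD) and of the cytoplasmic genes (1 in T). With library totals they were those of the inner ring (5), Y complex (6) and basket (1) in T, of the cytoplasmic genes (3) and Ran cycle (2) in T and in WSD, and of the Y complex (5) and channel (3) in TWSD.

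**Figure D2:**
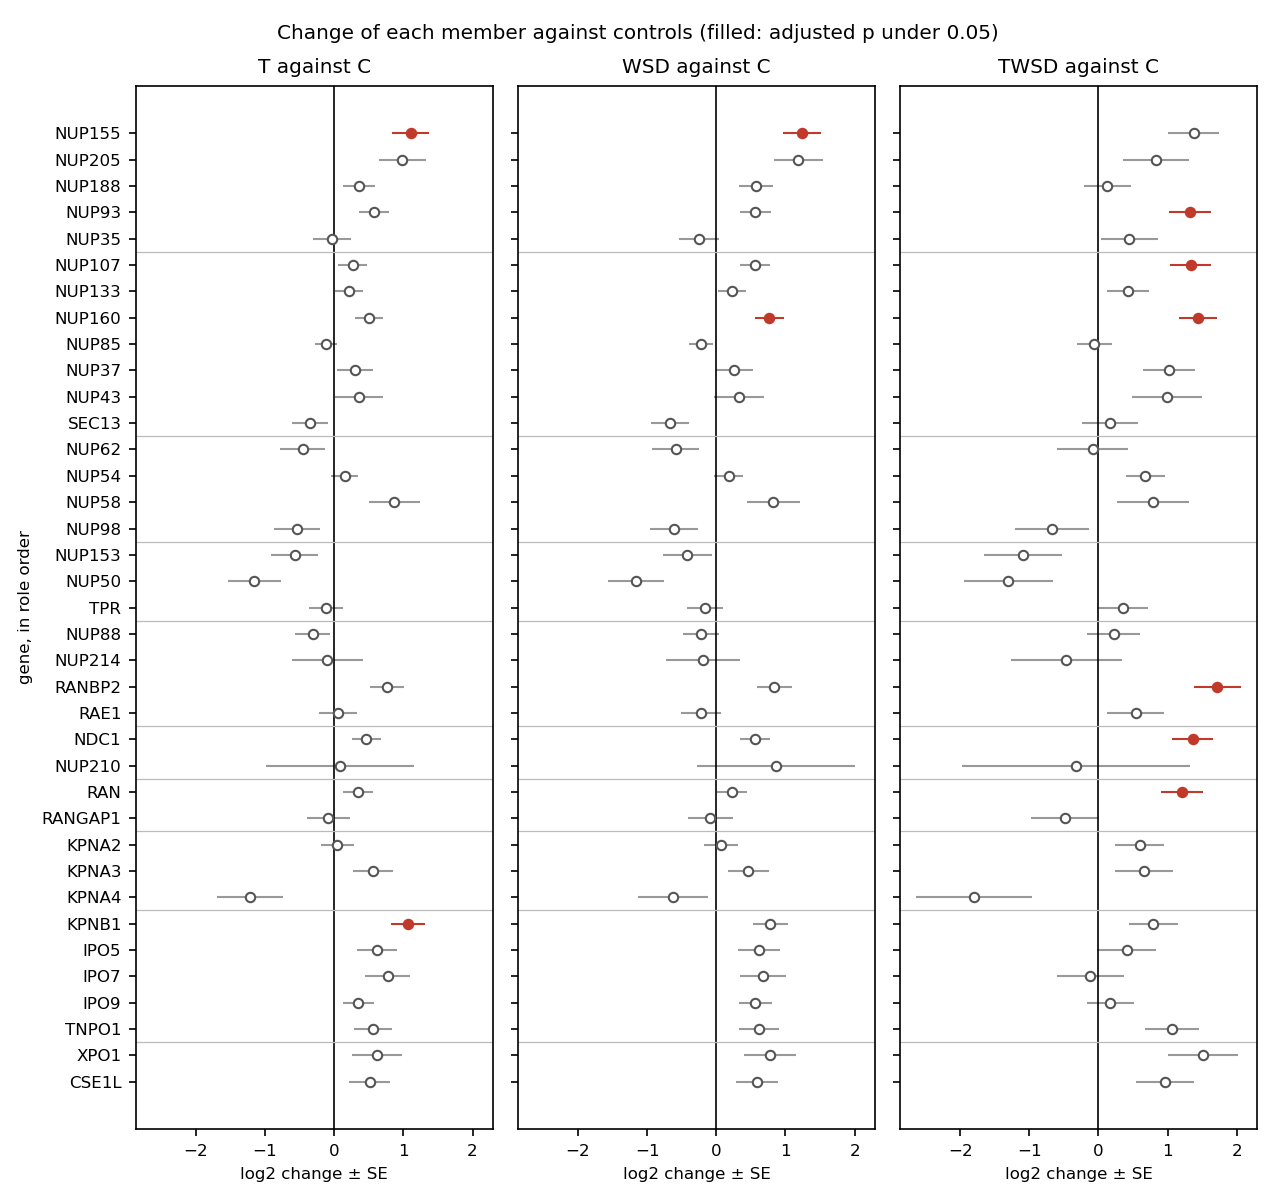
Log2 change of each member against C, with its standard error, in T (10 libraries), WSD (8) and TWSD (2) against 5 C libraries. Filled red points passed at an adjusted p under 0.05, and grey lines part the role classes. The 2 filled points in T are NUP155 and KPNB1, the 2 in WSD are NUP155 and NUP160, and all 6 in TWSD lie between 1.21 and 1.72.

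Of the 5 inner ring genes NUP155 was higher in T and in WSD, NUP93 was higher in TWSD, and the other 3 passed in no comparison. NUP155 is the long scaffold subunit that ties the ring to the membrane. In T it ran from 209.7 to 304 (median 255) CPM and in WSD from 179 to 352 (median 295), with 267 in TWSD 2 and 358 in TWSD 3, against 151 (C 1), 62.6 (C 2), 248 (C 8), 85.2 (C 11) and 56.3 CPM (C 12) in controls. C 8 lay inside the T and WSD ranges, and the other 4 controls lay below every treated library. The log2 change (± standard error) of NUP155 was 1.11 ± 0.27 (adjusted p = 0.0199) in T, 1.24 ± 0.28 (adjusted p = 0.0136) in WSD and 1.38 ± 0.37 (adjusted p = 0.056) in TWSD. NUP155 thus passed in T and in WSD but not in TWSD. Without C 12 it was 0.92 (adjusted p = 0.104) in T and 1.05 (adjusted p = 0.0657) in WSD, and without C 8, C 11 and C 12 1.32 (adjusted p = 0.294) and 1.46 (adjusted p = 0.0784). Without C 11 the T call was lost as well.

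NUP93 connects the inner ring with the channel nucleoporins. It stood at 566 CPM in TWSD 2 and 255 in TWSD 3, and ran from 189 to 298 (median 246) in T and from 175 to 292 (median 255) in WSD, against 219 (C 1), 182 (C 2), 168 (C 8), 172 (C 11) and 76.6 CPM (C 12) in controls. Both TWSD libraries lay above every control, but TWSD 3 lay inside the range of the single treatments. Against C the log2 change was 1.33 ± 0.31 (adjusted p = 0.0295) in TWSD, 0.57 ± 0.22 (adjusted p = 0.134) in T and 0.57 ± 0.22 (adjusted p = 0.153) in WSD. The TWSD change of NUP93 was 1.13 (adjusted p = 0.0979) with library totals and 1.35 (adjusted p = 0.0857) with no filter. NUP188, a large adaptor of the same ring, ran from 209 to 415 (median 323) CPM in T and from 298 to 507 (median 352) in WSD, with 114 in TWSD 2 and 411 in TWSD 3, against 278 (C 1), 227 (C 2), 264 (C 8), 179 (C 11) and 251 CPM (C 12) in controls. Every WSD library was above every control for NUP188, while TWSD 2 was the lowest of all 25 libraries and TWSD 3 above every control. Its log2 changes were 0.36 ± 0.23 (adjusted p = 0.445), 0.57 ± 0.24 (adjusted p = 0.187) and 0.13 ± 0.34 (adjusted p = 0.85) in T, WSD and TWSD. The related adaptor NUP205 had 0.98 ± 0.34, 1.18 ± 0.35 and 0.83 ± 0.48, with adjusted p = 0.0563 in WSD, and NUP35, which binds the membrane, -0.03 ± 0.28, -0.25 ± 0.29 and 0.45 ± 0.42.

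Of the 7 Y complex genes measured, 0 passed in T, NUP160 was higher in WSD, and NUP107 and NUP160 were higher in TWSD. Both are structural subunits of the complex that forms the outer rings. NUP160 stood at 438 CPM in TWSD 2 and 256 in TWSD 3, and ran from 141 to 245 (median 177) in T and from 125 to 265 (median 218) in WSD, against 138 (C 1), 130.4 (C 2), 123 (C 8), 84.0 (C 11) and 163 CPM (C 12) in controls. Both TWSD libraries were above every T library and every control, and WSD overlapped with TWSD 3 and with controls. The log2 change was 0.50 ± 0.20 (adjusted p = 0.155) in T, 0.77 ± 0.21 (adjusted p = 0.0352) in WSD and 1.44 ± 0.28 (adjusted p = 0.0177) in TWSD. The WSD call was lost without any of 9 single libraries (C 8, C 11, C 12 or 6 of the 8 WSD libraries), while the change itself stayed between 0.64 and 0.87.

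NUP107 was at 391 in TWSD 2 and 229 in TWSD 3, above each of the 10 T libraries (89.6 to 191 CPM, median 151), each of the 8 WSD libraries (154 to 219, median 183) and the controls, which had 125 (C 1), 142 (C 2), 169 (C 8), 118 (C 11) and 59.9 CPM (C 12). It was the 1 member for which both TWSD libraries exceeded every other library in the series. Its log2 change was 1.33 ± 0.30 (adjusted p = 0.0254) in TWSD, 0.27 ± 0.21 (adjusted p = 0.555) in T and 0.56 ± 0.22 (adjusted p = 0.152) in WSD. The TWSD change of NUP107 was 1.17 (adjusted p = 0.0813) with library totals and 1.36 (adjusted p = 0.0892) with no filter. NUP85, another subunit of the Y complex, differed little between groups. It ran from 195 to 295 (median 231) CPM in T and from 186 to 267 (median 223) in WSD, with 239.7 in TWSD 2 and 262 in TWSD 3, against 230.4 (C 1), 230.0 (C 2), 228 (C 8), 231 (C 11) and 388 CPM (C 12) in controls. C 12 alone stood out, and the log2 changes were -0.12 ± 0.16, -0.22 ± 0.17 and -0.06 ± 0.25 in T, WSD and TWSD (adjusted p = 0.773, 0.543 and 0.91). The small subunits NUP37 and NUP43 and the large subunit NUP133 had changes of 1.02, 0.99 and 0.43 in TWSD and of 0.21 to 0.36 in T and WSD, none past the test. SEC13, which also coats vesicles leaving the endoplasmic reticulum, had -0.35 ± 0.27, -0.67 ± 0.28 and 0.17 ± 0.41.

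**Figure D3:**
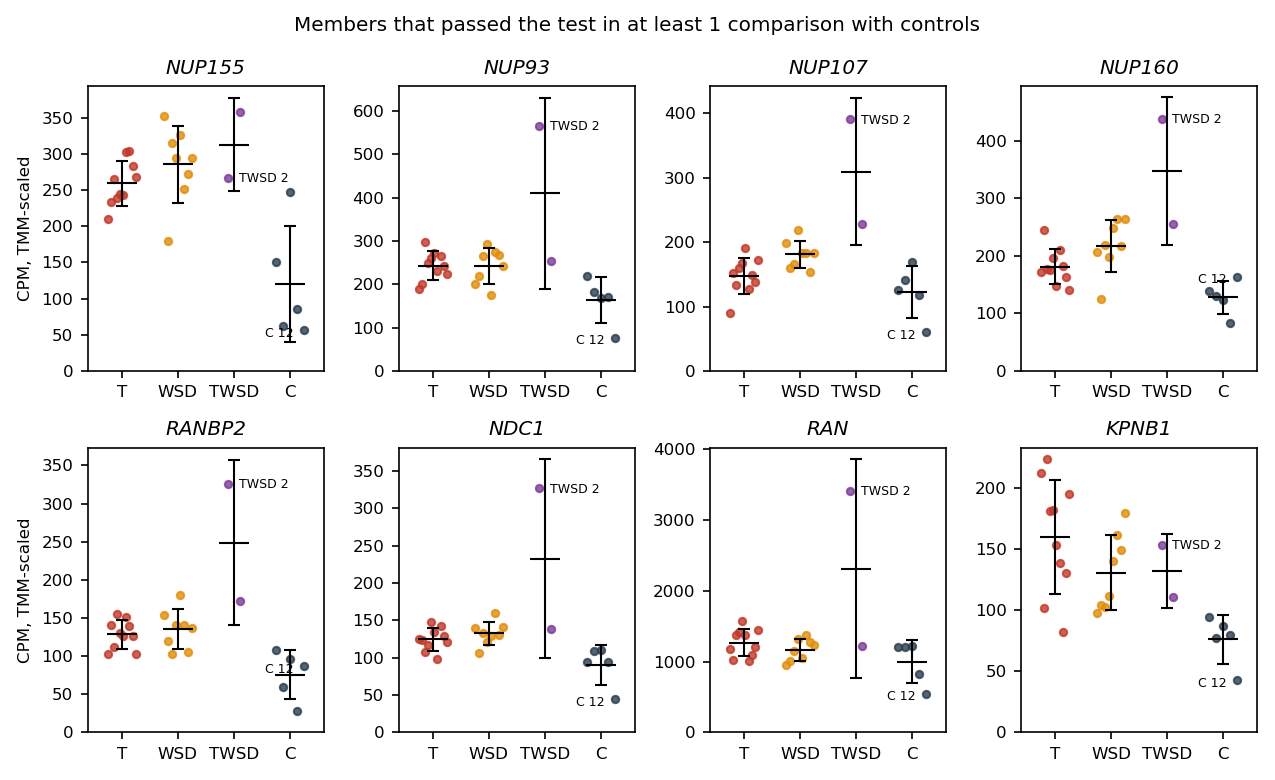
CPM of the 8 members that passed in at least 1 comparison with C, 1 point per library, with mean and SD (black) for T (n = 10), WSD (n = 8), TWSD (n = 2) and C (n = 5). TWSD 2 is far above TWSD 3 for NUP93, NUP107, NUP160, RANBP2, NDC1 and RAN, and C 12 is the lowest library of all for NUP155, NUP93, NUP107, NDC1, RAN and KPNB1.

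The 4 channel nucleoporins passed in no comparison. NUP62, which lines the channel with its repeats, ran from 94.7 to 309.8 (median 217) CPM in T and from 162 to 281 (median 211) in WSD, with 309 in TWSD 2 and 284 in TWSD 3, against 178 (C 1), 157 (C 2), 126 (C 8), 242 (C 11) and 869 CPM (C 12) in controls. C 12 was thus at more than any of the other 24 libraries, of which the highest had 309.8 CPM. The log2 changes of NUP62 were -0.45 ± 0.33, -0.59 ± 0.34 and -0.09 ± 0.51 in T, WSD and TWSD, and without C 12 they had the opposite sign, at 0.39, 0.25 and 0.77. NUP98, a repeat nucleoporin that takes part in RNA export and whose gene in human also codes for the Y complex protein NUP96, was likewise at 658 CPM in C 12 and at most 186 in the other 24. NUP54 and NUP58, the partners of NUP62, had changes of 0.15 and 0.87 in T, 0.18 and 0.83 in WSD and 0.68 and 0.79 in TWSD. NUP58 was lowest in C 11, at 17.0 CPM.

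The 3 basket genes did not pass either, and all 3 had log2 changes below 0 in T and in WSD, although that of TPR in T was 0.05 with library totals. NUP50, which helps to recycle importin alpha, ran from 174 to 539 (median 270.4) CPM in T and from 189 to 421 (median 281) in WSD, with 208 in TWSD 2 and 302 in TWSD 3, against 184 (C 1), 172 (C 2), 984 (C 8), 211 (C 11) and 1597 CPM (C 12) in controls. C 8 and C 12 were higher than all other libraries, T 1 came next with 539, and the other controls were low, C 1 and C 11 at the lower end of the treated range and C 2 under it. The change was -1.16 ± 0.38 (adjusted p = 0.0831) in T, -1.17 ± 0.40 (adjusted p = 0.0978) in WSD and -1.30 ± 0.65 (adjusted p = 0.238) in TWSD. Without C 8, C 11 and C 12 it was 0.71, 0.70 and 0.55, and NUP153 and TPR were above 0 as well. NUP153, which anchors the basket, had -0.57 ± 0.34, -0.42 ± 0.36 and -1.09 ± 0.56, with 22.2 CPM in TWSD 2 (the lowest library) and 323 in C 12 (the highest). TPR, which forms the basket filaments, had -0.12 ± 0.25, -0.17 ± 0.26 and 0.35 ± 0.37, and was highest in C 8 (483 CPM).

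On the cytoplasmic side 1 of 4 genes passed. RANBP2, the main filament protein, holds Ran's activator at the pore and attaches SUMO to other proteins. It was at 325 in TWSD 2 and 172 in TWSD 3, and ran from 102 to 156 (median 128) CPM in T and from 103 to 181 (median 139) in WSD, against 108 (C 1), 59.0 (C 2), 96.7 (C 8), 27.7 (C 11) and 86.7 CPM (C 12) in controls. Both TWSD libraries were above every T library and every control, and C 11 was the lowest of the series. The log2 change was 1.72 ± 0.34 (adjusted p = 0.0177) in TWSD, the largest of any member, with 0.77 ± 0.24 (adjusted p = 0.0724) in T and 0.84 ± 0.25 (adjusted p = 0.0568) in WSD. DESeq2 and the scaling by library totals also called RANBP2 higher in T and in WSD.

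NUP88, a docking protein of the export machinery, ran from 176 to 267 (median 231) CPM in T and from 180.4 to 325 (median 225) in WSD, with 378 in TWSD 2 and 275 in TWSD 3, against 230.0 (C 1), 196 (C 2), 175 (C 8), 157 (C 11) and 645 CPM (C 12) in controls. It was again C 12 that stood far above all others. Its changes were -0.31 ± 0.25, -0.22 ± 0.26 and 0.22 ± 0.39 in T, WSD and TWSD (adjusted p = 0.583, 0.734 and 0.765), and 0.26, 0.34 and 0.80 without C 12. NUP214, its partner in export, was at 1.09 CPM in TWSD 2 (17 counts) and at 119 in TWSD 3 (3311 counts), so that the log2 change of -0.46 ± 0.80 averages 2 unlike libraries. RAE1, an mRNA export factor, had 0.05 ± 0.28, -0.22 ± 0.29 and 0.54 ± 0.41.

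Of the membrane nucleoporins NDC1, which spans the envelope and takes part in pore assembly, was higher in TWSD. It stood at 327 in TWSD 2 and 139 in TWSD 3 and ran from 98.9 to 148 (median 124) CPM in T and from 106 to 159 (median 132) in WSD, against 94.2 (C 1), 109 (C 2), 111 (C 8), 93.7 (C 11) and 44.1 CPM (C 12) in controls. TWSD 3 lay within the T and WSD ranges and above every control. The log2 change was 1.37 ± 0.30 (adjusted p = 0.0216) in TWSD, 0.46 ± 0.21 (adjusted p = 0.226) in T and 0.55 ± 0.22 (adjusted p = 0.151) in WSD. With library totals the TWSD change of NDC1 was 1.17 (adjusted p = 0.077), and with no filter 1.39 (adjusted p = 0.0866). NUP210, a membrane nucleoporin that is not used in every cell type, was low and uneven. It ran from 0 (T 8) to 59.8 CPM (T 1) in T and from 3.69 to 57.1 in WSD, and was at 0.258 in TWSD 2 and 26.4 in TWSD 3, against 5.64 (C 1), 27.6 (C 2), 49.9 (C 8), 0.375 (C 11) and 0.052 CPM (C 12) in controls. Its changes, 0.08 ± 1.07, 0.86 ± 1.14 and -0.33 ± 1.65, are smaller than their errors.

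RAN, the GTPase itself, was higher in TWSD, where 1 of the 2 libraries stood far above all others. It was at 3408 in TWSD 2 and 1221 in TWSD 3, and ran from 1011 to 1570.3 (median 1289) CPM in T and from 947 to 1374 (median 1193) in WSD, against 1208 (C 1), 1207 (C 2), 1216 (C 8), 824 (C 11) and 543 CPM (C 12) in controls. TWSD 3 lay within the single treatments and hardly above C 8, and TWSD 2 at more than any of the other 24. The change was 1.21 ± 0.31 (adjusted p = 0.047) in TWSD, 0.35 ± 0.21 (adjusted p = 0.423) in T and 0.23 ± 0.22 (adjusted p = 0.664) in WSD, and without TWSD 2 it was 0.31 (adjusted p = 0.802). This call was also lost without C 11, T 10, T 11 or WSD 1. With DESeq2 size factors the change was 1.105 (adjusted p = 0.0597), with library totals 1.00 (adjusted p = 0.122), with no filter on low counts 1.23 (adjusted p = 0.082) and with filterByExpr 1.24 (adjusted p = 0.057). It was 1.29 (adjusted p = 0.686) in the fit of only TWSD and C, 0.67 (adjusted p = 0.971) by limma voom and 0.955 (adjusted p = 0.146) without C 8, C 11 and C 12, so that of these fits DESeq2 alone, with 1.105 (adjusted p = 0.00626), kept the call. RANGAP1, which makes Ran hydrolyse its GTP, had -0.09 ± 0.31, -0.09 ± 0.32 and -0.48 ± 0.49.

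None of the 3 importin alpha genes, whose proteins bind the classical import signal, passed in any comparison with C. KPNA2 ran from 236 to 451 (median 348) CPM in T and from 298 to 469.6 (median 329.9) in WSD, with 597 in TWSD 2 and 419 in TWSD 3, against 257 (C 1), 373 (C 2), 224 (C 8), 163 (C 11) and 664 CPM (C 12) in controls. The single treatments lay inside the range of controls. Log2 changes of KPNA2 were 0.04 ± 0.24, 0.07 ± 0.25 and 0.59 ± 0.35 in T, WSD and TWSD (adjusted p = 0.958, 0.934 and 0.32). The members of this class went apart in C 12, which was highest of all libraries for KPNA2 and KPNA4 (67.0 CPM) and lowest for KPNA3 (36.9 CPM). KPNA3 had 0.56 ± 0.29, 0.47 ± 0.30 and 0.66 ± 0.42, and KPNA4 -1.22 ± 0.48, -0.62 ± 0.51 and -1.79 ± 0.84.

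KPNB1, importin beta, which carries importin alpha and its cargo through the channel, was higher in T. It ran from 82.3 to 224 (median 167) CPM in T and from 97.4 to 179 (median 125) in WSD, with 153 in TWSD 2 and 111 in TWSD 3, against 94.4 (C 1), 76.9 (C 2), 86.8 (C 8), 79.5 (C 11) and 42.5 CPM (C 12) in controls. Every WSD library and both TWSD libraries were above every control, and so were 9 of 10 T libraries, T 9 being at 82.3. The change was 1.07 ± 0.25 (adjusted p = 0.0157) in T, 0.78 ± 0.25 (adjusted p = 0.0756) in WSD and 0.80 ± 0.35 (adjusted p = 0.186) in TWSD. Without C 12 it was 0.92 (adjusted p = 0.0759) in T. At 2 controls, without C 8, C 11 and C 12, it was 0.94 (adjusted p = 0.85).

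The other 4 receptors of the importin beta family did not pass, and all 5 had log2 changes above 0 in T and in WSD, under DESeq2 size factors and library totals too. TNPO1, which imports RNA-binding proteins, ran from 245 to 383 (median 334) CPM in T and from 227 to 406 (median 352) in WSD, with 583 in TWSD 2 and 327 in TWSD 3, against 290.4 (C 1), 203 (C 2), 248 (C 8), 300.4 (C 11) and 46.6 CPM (C 12) in controls. C 12 lay far below the rest, and T and WSD overlapped with the other controls. Changes of TNPO1 were 0.56 ± 0.28 (adjusted p = 0.287), 0.62 ± 0.29 (adjusted p = 0.244) and 1.06 ± 0.39 (adjusted p = 0.132) in T, WSD and TWSD. IPO5 and IPO7, importers of ribosomal proteins and histones, had 0.62 and 0.78 in T, 0.62 and 0.67 in WSD and 0.41 and -0.12 in TWSD. The histone importer IPO9 had 0.35, 0.57 and 0.17, and was lowest in TWSD 2.

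Both exportins had log2 changes above 0 in all 3 comparisons, and neither passed. CSE1L, which returns importin alpha to the cytoplasm, ran from 294 to 596 (median 472) CPM in T and from 276 to 629 (median 499.8) in WSD, with 669 in TWSD 2 and 596 in TWSD 3, against 499.6 (C 1), 366 (C 2), 382 (C 8), 316 (C 11) and 61.7 CPM (C 12) in controls. Both TWSD libraries were above every control, and C 12 was the lowest of all 25. The changes were 0.51 ± 0.29 (adjusted p = 0.372), 0.59 ± 0.30 (adjusted p = 0.309) and 0.96 ± 0.42 (adjusted p = 0.186) in T, WSD and TWSD. XPO1, the general export receptor for proteins, was at 478 in TWSD 2 and 275 in TWSD 3, at 148 to 250.2 CPM in T and at 110.2 to 310.3 in WSD, against 227 (C 1), 176 (C 2), 136 (C 8), 106 (C 11) and 13.6 CPM (C 12) in controls. Its changes were 0.62 ± 0.36 (adjusted p = 0.384), 0.78 ± 0.37 (adjusted p = 0.266) and 1.52 ± 0.51 (adjusted p = 0.105).

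**Figure D4:**
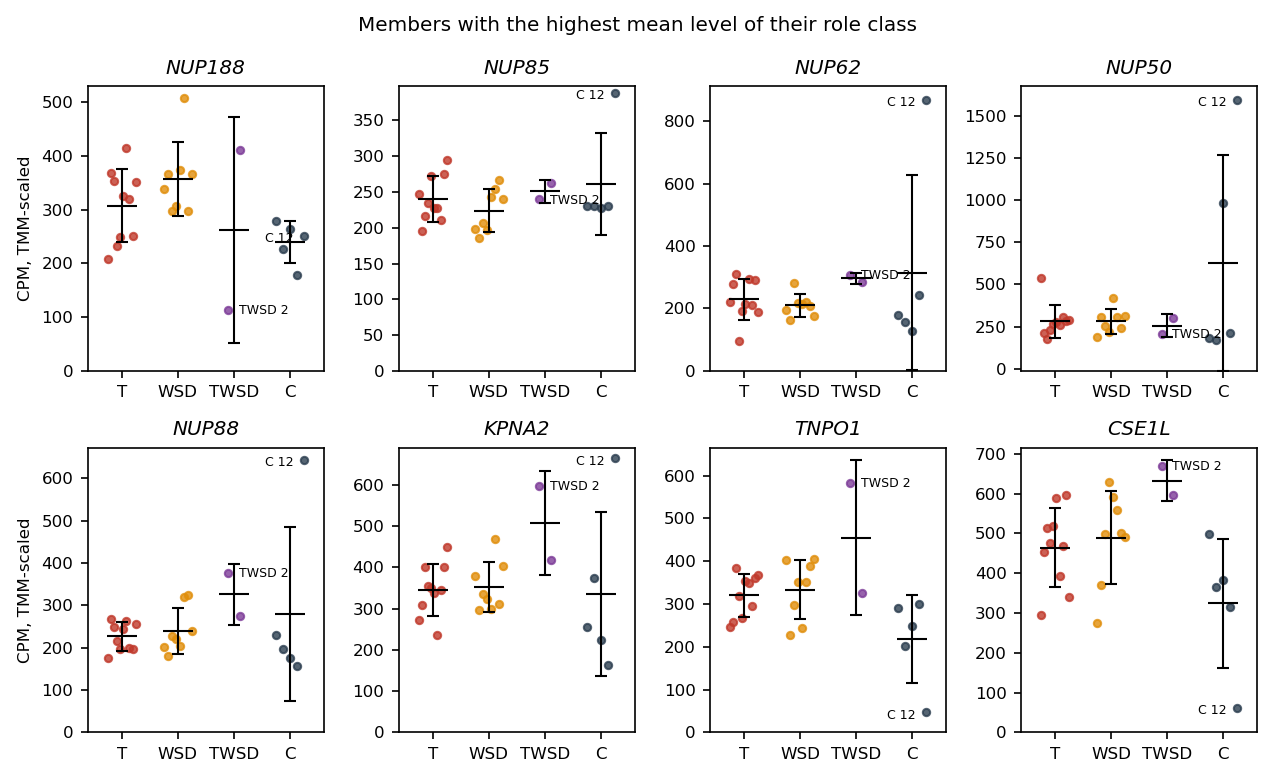
CPM of the 8 members that were named as highest of their role class and passed in no comparison with C, 1 point per library, with mean and SD (black) for T (n = 10), WSD (n = 8), TWSD (n = 2) and C (n = 5). C 12 is above all other libraries for NUP85, NUP62, NUP50, NUP88 and KPNA2 and below all others for TNPO1 and CSE1L.

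Between the treatments no member passed the test. In T against WSD edgeR called 0 of 37 members, and 0 were under an unadjusted p of 0.05, where 1.01% of all genes were higher and 0.689% lower at that level. DESeq2 and limma voom called 0 members as well. Member changes ran from -0.78 to 0.32, with a median of -0.001, and both extremes of the range, NUP210 and SEC13, had errors of 0.918 and 0.234. A p that misses the threshold does not show that T and WSD act alike. TWSD against T and TWSD against WSD gave 0 calls among members by edgeR, with 7 and 8 members higher and 0 lower at an unadjusted p under 0.05. The shares of all genes at that level were 7.08% higher and 6.18% lower against T, and 7.41% and 6.16% against WSD. DESeq2 called 3 members higher against T and 1 against WSD, where it called 583 and 574 of all genes, and limma voom called 0 members. Leaving TWSD 3 out, so that TWSD 2 stood alone, gave a member median of 0.45 in TWSD against WSD, where all 25 libraries gave 0.37. Leaving TWSD 2 out instead gave a member median of 0.21 in TWSD against WSD and of 0.22 in TWSD against T. Leaving C 8, C 11 and C 12 out of the joint fit gave 4 members higher in TWSD against T (NUP107, NUP160, RANBP2 and NDC1) and 1 against WSD (RAN). Of all genes, that fit called 275 against T and 335 against WSD, both directions together.

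The interaction, which is the change from T to TWSD minus the change from C to WSD, was called for 0 members by edgeR, DESeq2 and limma voom, with 1 positive and 4 negative at an unadjusted p under 0.05, where 8.6% and 4.96% of all genes were. The smallest adjusted p among members was 0.232, for IPO7, at -1.56 ± 0.59. Over all genes edgeR called 3 higher and 4 lower in TWSD against T, the same numbers in TWSD against WSD, and 6 and 4 for the interaction, which is 0.0431% and 0.0287% of genes. With library totals these splits were 0 and 4, 0 and 4, and 1 and 4, and with DESeq2 size factors 1 and 3, 3 and 4, and 5 and 3.

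Groups that did not overlap were counted without a model, on CPM scaled by TMM factors. The factor was 0.763 in TWSD 2, 1.046 in TWSD 3 and 0.708 in C 12, and a factor below 1 raises the CPM of its library. Counts of this kind were not made with library totals, and those for TWSD can differ with that scaling. In TWSD 13 of 37 members (35.1%) lay above every control in both libraries, against 5.29% of all genes, and 0 lay below every control, against 6.74%. The 13 were NUP155, NUP93, NUP107, NUP160, NUP43, RANBP2, NDC1, RAN, KPNA3, KPNB1, TNPO1, XPO1 and CSE1L. In WSD 2 members (5.41%), NUP188 and KPNB1, lay above every control, against 0.459% of all genes. In T 0 members did, against 0.179% of all genes. Below every control lay 0 members in T and in WSD, against 0.1% and 0.237%. TWSD exceeded every T library for NUP107, NUP160, NUP88, RANBP2 and XPO1 (13.5%, against 2.67% of all genes), and every WSD library for NUP107 and NUP62 (5.41%, against 3.39%). KPNA4 (2.7%) lay below every WSD library, against 4.23% of all genes, and 0 members lay below every T library, against 3.21%. T and WSD overlapped for all 37 members, where 0.00718% of all genes lay higher in every T library.

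The calls rested on few libraries. All 6 in TWSD were lost without TWSD 2, where TWSD 3 stood alone and was assumed to vary like the other groups. The changes then were 0.66 for NUP93, 0.91 for NUP107, 1.01 for NUP160, 1.20 for RANBP2, 0.64 for NDC1 and 0.31 for RAN, all still above 0. Both calls in T and both in WSD were lost without C 12. The number of all genes called then fell from 573 to 40 in T and from 567 to 51 in WSD. All member calls against C were lost without C 8, C 11 and C 12 together, where 2 controls remained. Of all genes, that fit called 0 in T, 1 in WSD and 20 in TWSD. With T 1 also left out, NUP155, NUP107, NUP160 and RANBP2 were called in TWSD, among 71 of all genes. In the fit without the 3 controls 32 of 37 members had changes above 0 in T, 29 in WSD and 34 in TWSD, with medians of 0.32, 0.42 and 0.64, where the medians of all genes were 0.08, 0.07 and -0.05. The 2 controls kept were unlike in these genes. Against each member's mean log2 level over 25 libraries, the median member was at -0.08 in C 1 and -0.35 in C 2. It was at -0.155 in C 8, -0.47 in C 11 and -0.36 in C 12.

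TWSD 2 differed from the single treatments in both directions. Its TMM factor was 0.763, against 0.945 to 1.096 in T and WSD, which raises its CPM relative to theirs. The counts that follow are for TMM-scaled CPM and were not made with library totals. TWSD 2 lay above all 18 T and WSD libraries for 17 members (45.9%, against 21.6% of all genes) and below all of them for 7 (18.9%, against 22%). TWSD 3 lay above all 18 for 3 members (NUP155, NUP107 and NUP214) and below for 0, against 4.59% and 3.67% of all genes. With this scaling the members above in TWSD 2 were of every role class, among them 4 of 7 Y complex genes, 3 of 4 cytoplasmic genes and both exportins. Those below were NUP205, NUP188, NUP58, NUP98, NUP153, NUP214 and IPO9. TWSD 2 also had a sum of unfolded protein response genes of 13660 CPM, of which 12779 CPM was the chaperone HSPA5, against a sum of 2962 in TWSD 3 and at most 6205 in T and WSD. Its part in the member values was not tested. The median coefficient of variation of the members was 38.2% in TWSD, 21.3% in T, 20.9% in WSD and 49.8% in C, where over all genes it was 72.2%, 47.2%, 45.3% and 78.6%.

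C 12 lay far from the other controls in both directions. Its TMM factor was 0.708, against 0.95 to 1.056 in the other controls, which raises its CPM relative to theirs. The counts that follow are for that scaling and were not made with library totals. C 12 was outside the range of the other controls for 30 of 37 members, above all 4 for 14 (37.8%, against 27.6% of all genes) and below for 16 (43.2%, against 32.2%). Below were 4 of 5 genes of the importin beta family, both exportins, both membrane nucleoporins and RAN, and above were 3 of 4 channel genes, 2 of 3 basket genes and 3 of 4 cytoplasmic genes. The other classes went both ways, with 1 inner ring gene above (NUP35) and 3 below (NUP155, NUP205 and NUP93), 3 Y complex genes above (NUP133, NUP160 and NUP85) and 3 below (NUP107, NUP43 and SEC13), and 2 importin alpha genes above (KPNA2 and KPNA4) and 1 below (KPNA3). XPO1 was at 13.6 CPM in C 12 (260 counts) and at 106 CPM or more in each of the other 24 libraries. CSE1L was at 61.7 CPM in C 12 and at 276 or more elsewhere, TNPO1 at 46.6 and at 203 or more, and IPO5 at 40.2 and at 107 or more. C 12 was also the library with the highest sum of unfolded protein response genes, and with C 11 one of the 2 with the least POU5F1, as given above. The part of these markers in the member values was not tested.

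**Figure D5:**
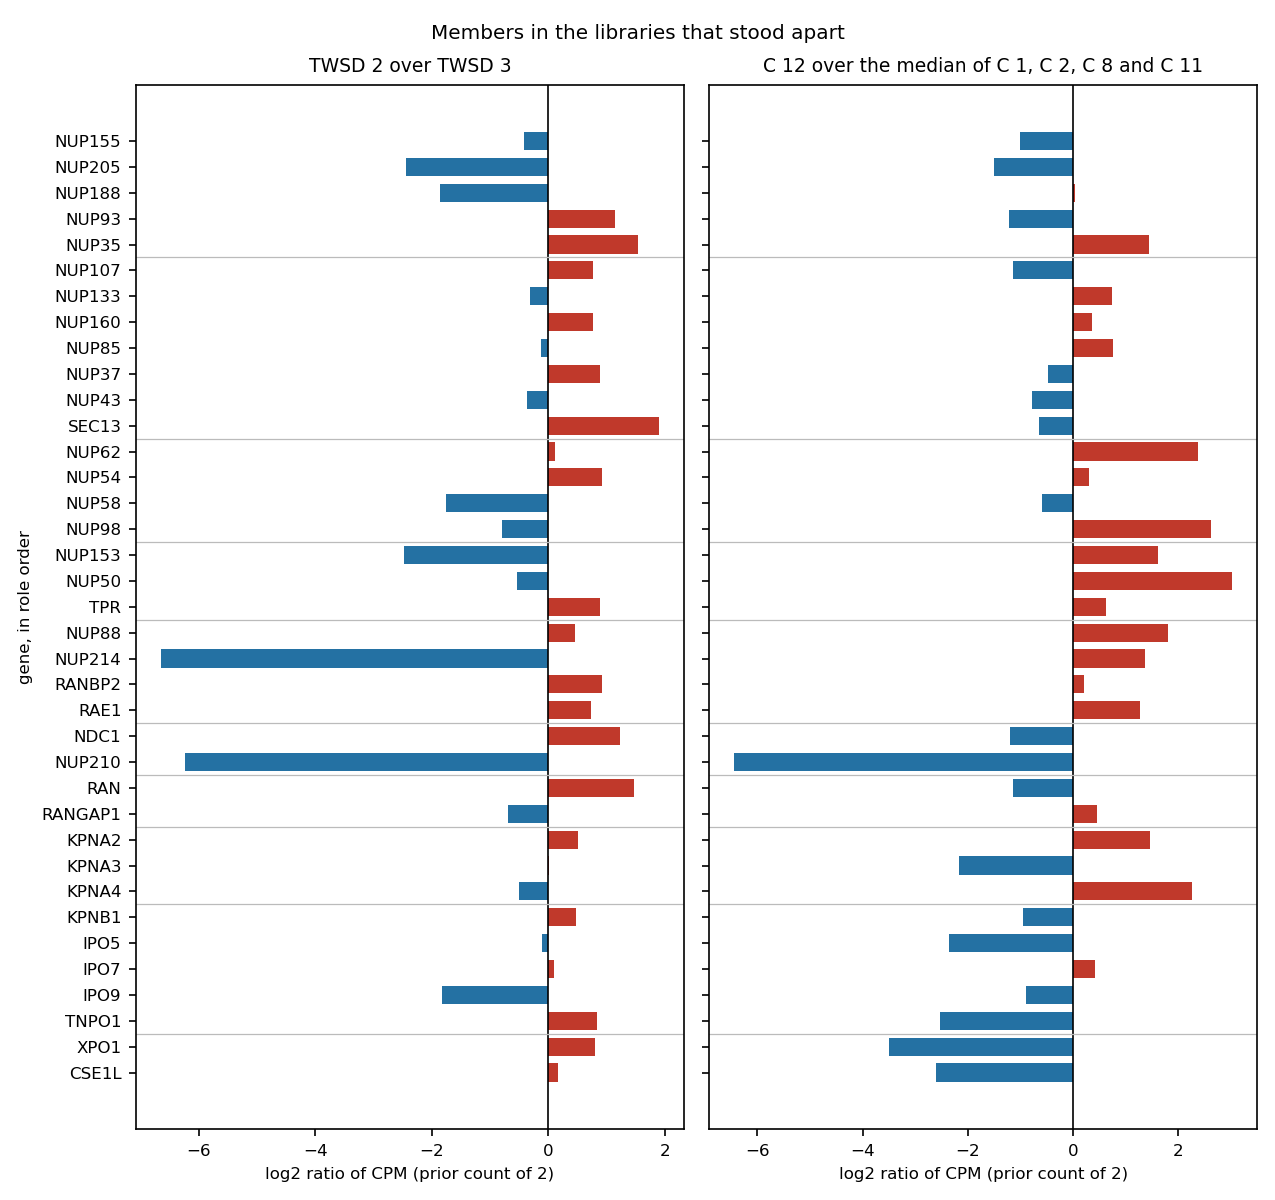
Log2 ratio of the CPM of each member in TWSD 2 over TWSD 3 (left) and in C 12 over the median of the other 4 controls (right), with a prior count of 2. Red bars are above 0 and blue bars below, and grey lines part the role classes. In C 12 exportins and most importin beta genes point down while most channel, basket and cytoplasmic genes point up. In TWSD 2 the long bars down are NUP214 and NUP210.

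A second list of 40 further nuclear pore and transport genes gave 39 with an identifier, of which 38 were tested. In T and in WSD 0 were called higher and 1 lower (NXF1, the main export receptor for mRNA). In TWSD 3 were called higher (RANBP1, IPO11 and XPO4) and 0 lower. Of all genes tested, 3.77% were called lower in T and 3.6% in WSD, so 1 of 38 is not above that share. In TWSD 0.861% of all genes were called higher. Median changes of the list were 0.10, 0.14 and 0.23, against -0.12, -0.12 and -0.38 over all genes. NXF1 was at 91.7 to 158 CPM in T, 93.0 to 161 in WSD, 36.1 in TWSD 2 and 141 in TWSD 3, against 129.9 (C 1), 149 (C 2), 133 (C 8), 275 (C 11) and 1545 CPM (C 12) in controls. The high value was that of C 12, and C 1, C 2 and C 8 lay inside the T range. The log2 change was -1.71 ± 0.41 (adjusted p = 0.0187) in T and -1.79 ± 0.43 (adjusted p = 0.021) in WSD. RANBP1, a cofactor of Ran's activator, was at 1648 CPM in TWSD 2 and 547 in TWSD 3, against 149 to 563 in C, with a log2 change of 1.53 ± 0.37 (adjusted p = 0.0352). The importin IPO11 was at 411 CPM in TWSD 2 and 113 in TWSD 3, against 22.9 to 130.4 in C, with a log2 change of 2.02 ± 0.46 (adjusted p = 0.0287). The transport receptor XPO4 was at 256 CPM in TWSD 2 and 79.8 in TWSD 3, against 48.0 to 55.7 in C, with a log2 change of 1.70 ± 0.42 (adjusted p = 0.0416). TWSD 2 was the high library for all 3, and TWSD 3 overlapped with controls for RANBP1 and IPO11. These calls also rested on single libraries: NXF1 had -0.34 (adjusted p = 0.663) in T and -0.42 (adjusted p = 0.568) in WSD without C 12, and RANBP1, IPO11 and XPO4 had 0.55 (adjusted p = 0.693), 0.83 (adjusted p = 0.651) and 0.64 (adjusted p = 0.696) without TWSD 2. With library totals 0 of the 38 were called in any comparison with C.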

How the data were processed

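Levels of RNA were measured in 25 rhesus macaque blastocyst libraries, grouped by the treatment named in the labels. FastQC 0.11.8, Trimmomatic 0.39 and STAR 2.7.0 were used with build Mmul_10, per the submitters' processing notes. The authors deposited whole-number read counts per gene, with no normalization, in 1 table of 35395 genes. For the counting tool, annotation release and strand setting the value is not given in the sources used here, so reads of overlapping or antisense genes cannot be told apart. A symbol table named 24173 genes. The members, roles and lists were chosen with earlier results of these data known.

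Kept were 13934 genes that reached 1 CPM in 5 or more libraries. Counts were scaled by TMM and fitted in 1 model of 4 groups over all 25 libraries with edgeR 4.0.16 (R 4.3.3), using the robust quasi-likelihood F-test, with Benjamini-Hochberg adjustment over all genes tested and a threshold of 0.05. A log2 change is the first-named group over the other, ± its standard error, which is the change divided by the square root of F. In all, 7 comparisons were made, and CPM is given per library with no length correction. The totals of 14219054 to 35544542 counts set the counting precision. Named with all values were the members called in any comparison and the member with the highest mean CPM of each role class. Alternatives were DESeq2 1.42.0, its size factors, library totals, limma 3.58.1 voom with quality weights, other filters, only the groups compared, a replicate block, and libraries left out. The same alternatives for the other gene lists were chosen after seeing the data. The code was tested on simulated data. A minimum share of recovered changes was required only at a spread between libraries smaller than that observed. The simulation therefore does not establish how many changes are found at the observed spread. Sequences were not used here.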

Additional observations from a re-analysis of the deposited data

Results flagged for a closer look

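A total of 16 values of members stood far from the rest of their group, with a gap to the nearest library that was large for the range of the group, out of 111 groups of 4 or more libraries tested. Chance flags about 1 group in 20, or 5.6 of 111. Of the 16, 5 were in T, 4 in WSD and 7 in C, and all 7 in C were C 12. TWSD, with 2 libraries, was not tested.

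In C 12, high values were those of NUP85 (388 CPM, next control 231), NUP62 (869, next 242), NUP98 (658, next 146), NUP88 (645, next 230.0) and KPNA4 (67.0, next 21.9). Low values in C 12 were those of NDC1 (44.1 CPM, next control 93.7) and IPO5 (40.2, next 176).

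Among WSD libraries, WSD 8 was high for NUP188 (507 CPM, next 374), WSD 1 for NUP43 (110.1, next 56.2) and WSD 6 for KPNA4 (35.4, next 19.8), and WSD 6 was low for NUP214 (30.2, next 64.3). Among T libraries, T 6 was high for NUP35 (149 CPM, next 98.9) and for NUP58 (281, next 155), T 10 for NUP43 (91.6, next 59.4), and T 1 for NUP50 (539, next 304) and for NUP210 (59.8, next 30.0). T 1 is also the library of its group with the highest sum of syncytiotrophoblast markers, 4246 CPM. The part of these markers in the values was not tested.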

How the results depend on the processing

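Counting is least precise for low members such as NUP210 and KPNA4, and 2 TWSD libraries limit every comparison of that group. NUP210 had 0 counts in T 8 and 875 in T 1, at totals of 15391037 and 14219054. The cause of that spread was not tested. Of 16 members named with all values, 3 comparisons with C and 35 alternatives each, 1505 of 1680 values kept their direction and their side of the threshold, 81 lost the threshold, 30 gained it and 64 changed sign. The main numbers of genes called were 573 in T, 567 in WSD and 167 in TWSD against C, 0 in T against WSD, 7 in TWSD against T, 7 in TWSD against WSD and 10 for the interaction. Leaving libraries out or testing fewer genes also changes the scaling, the filter or the shared estimate of the spread. What caused the changes in counts and signs below was not tested. With DESeq2 size factors, genes called numbered 4 in TWSD against T, while the member median of the log2 change was 0.40 in TWSD against C. Under it the sign of the log2 change against C turned, to -0.065 for KPNA2 in T, and to -0.041 for KPNA2 in WSD. With library totals, genes called numbered 240 in T against C, 321 in WSD against C, 96 in TWSD against C, 4 in TWSD against T and TWSD against WSD and 5 in the interaction, while for members the number called higher was 2 in TWSD against C. Then the member median of the log2 change was 0.15 in TWSD against T, 0.18 in TWSD against WSD and -0.24 in the interaction. Under it the sign of the log2 change against C turned, to 0.061 for NUP85 in T, and to 0.014 for NUP88 in WSD, and to 0.012 for NUP62 in TWSD. With no filter on low counts, genes called numbered 92 in TWSD against C, 3 in TWSD against T and TWSD against WSD and 4 in the interaction, while for members the number called higher was 1 in WSD against C and 2 in TWSD against C. With filterByExpr, genes called numbered 4 in TWSD against T and 6 in the interaction. With DESeq2 as the test, genes called numbered 1102 in T against C, 1185 in WSD against C, 1995 in TWSD against C, 6 in T against WSD, 583 in TWSD against T, 574 in TWSD against WSD and 395 in the interaction, while for members the number called higher was 5 in WSD against C, 3 in TWSD against T and 1 in TWSD against WSD. Then for members the number called lower was 1 in T against C and WSD against C. Then the member median of the log2 change was 0.40 in TWSD against C. Under it the sign of the log2 change against C turned, to -0.065 for KPNA2 in T, and to -0.041 for KPNA2 in WSD. With limma voom and quality weights, genes called numbered 0 in T against C, WSD against C, TWSD against C, TWSD against T, TWSD against WSD and the interaction, while for members the number called higher was 0 in T against C, WSD against C and TWSD against C. Then the member median of the log2 change was 0.22 in TWSD against T. Under it the sign of the log2 change against C turned, to 0.37 for NUP62 and 0.22 for NUP88 in T, and to 0.29 for NUP62 and 0.29 for NUP88 in WSD, and to 0.12 for NUP85 and 0.80 for NUP62 in TWSD. With only the groups compared, genes called numbered 114 in T against C, 30 in WSD against C, 0 in TWSD against C and 1 in TWSD against T and TWSD against WSD, while for members the number called higher was 0 in T against C, WSD against C and TWSD against C. Without C 8, C 11 and C 12, genes called numbered 0 in T against C, 1 in WSD against C, 20 in TWSD against C, 275 in TWSD against T, 335 in TWSD against WSD and 3 in the interaction, while for members the number called higher was 0 in T against C, WSD against C and TWSD against C, 4 in TWSD against T and 1 in TWSD against WSD. Under it the sign of the log2 change against C turned, to 0.099 for NUP85, 0.49 for NUP62, 0.71 for NUP50 and 0.13 for NUP88 in T, and to -0.013 for RAN, 0.35 for NUP62, 0.70 for NUP50 and 0.21 for NUP88 in WSD, and to 0.15 for NUP85, 0.84 for NUP62 and 0.55 for NUP50 in TWSD. Without C 8, C 11, C 12 and T 1, genes called numbered 0 in T against C, 1 in WSD against C, 71 in TWSD against C, 273 in TWSD against T and 476 in TWSD against WSD, while for members the number called higher was 0 in T against C and WSD against C and 4 in TWSD against T and TWSD against WSD. Under it the sign of the log2 change against C turned, to 0.076 for NUP85, 0.48 for NUP62, 0.54 for NUP50 and 0.14 for NUP88 in T, and to -0.036 for RAN, 0.33 for NUP62, 0.67 for NUP50 and 0.18 for NUP88 in WSD, and to 0.15 for NUP85, 0.84 for NUP62 and 0.55 for NUP50 in TWSD.

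The labels do not say what the replicate numbers stand for. Over 16 pairs of libraries with the same number, the correlation of their deviations from the group means ran from -0.38 to 0.22. In 3 of these pairs it was over 0.1, and 1 of 23 libraries correlated best with its own number. These values cannot decide whether the numbers pair the libraries, because deviations from a group mean are tied to each other within the group. In TWSD they are equal and opposite. Whether libraries with the same number share a female, a male or a day was not tested. With the replicate block, genes called numbered 0 in T against C, WSD against C, TWSD against C, TWSD against T, TWSD against WSD and the interaction. In that blocked fit for members the number called higher was 0 in T against C, WSD against C and TWSD against C. In that blocked fit the member median of the log2 change was 0.68 in TWSD against C. The blocked log2 change against C turned in sign, to 0.068 for NUP85, 0.45 for NUP62, 0.36 for NUP88 and -0.11 for CSE1L in T, and to 0.24 for NUP62, 0.42 for NUP88 and -0.099 for CSE1L in WSD, and to -0.12 for NUP188, 0.31 for NUP85, 0.84 for NUP62 and 0.092 for NUP50 in TWSD. At an unadjusted p under 0.05 the blocked fit had 786 genes in T, 566 in WSD and 1817 in TWSD against C, and limma voom 1241, 1165 and 428. The fit of only the groups compared was not run for the interaction.

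Leaving out 1 library at a time, genes called numbered 40 to 1287 in T against C, 51 to 1110 in WSD against C, 0 to 2786 in TWSD against C, 0 throughout in T against WSD, 0 to 2479 in TWSD against T, 0 to 2578 in TWSD against WSD and 0 to 2245 in the interaction, lowest without C 12 and highest without C 1 in T and WSD against C, and lowest without TWSD 2 and highest without TWSD 3 in all comparisons of TWSD. Members called higher numbered 0 to 4 in T against C, 0 to 5 in WSD against C, 0 to 10 in TWSD against C, 0 throughout in T against WSD, 0 to 8 in TWSD against T, 0 to 8 in TWSD against WSD and 0 to 2 in the interaction, with the lowest and highest counts against C without those same libraries. Members called lower numbered 0 to 1 in T against C, 0 to 1 in WSD against C, 0 to 2 in TWSD against C, 0 throughout in T against WSD, 0 to 5 in TWSD against T, 0 to 5 in TWSD against WSD and 0 to 4 in the interaction. The member median ran from 0.25 to 0.39 in T against C, 0.28 to 0.58 in WSD against C, 0.46 to 0.73 in TWSD against C, -0.055 to 0.028 in T against WSD, 0.22 to 0.46 in TWSD against T, 0.21 to 0.45 in TWSD against WSD and -0.15 to 0.22 in the interaction. Log2 changes against C that changed sign by leaving out 1 library ran from -0.18 to 0.067 for NUP85 in T, -0.66 to 0.39 for NUP62 in T, -0.46 to 0.26 for NUP88 in T, -0.14 to 0.45 for KPNA2 in T, -0.79 to 0.25 for NUP62 in WSD, -0.38 to 0.34 for NUP88 in WSD, -0.11 to 0.47 for KPNA2 in WSD, -1.07 to 0.79 for NUP188 in TWSD, -0.12 to 0.14 for NUP85 in TWSD, -0.29 to 0.77 for NUP62 in TWSD and -0.022 to 0.80 for NUP88 in TWSD. The calls of NUP155 in T (lost without C 11 or C 12), KPNB1 in T and NUP155 in WSD (lost without C 12), NUP160 in WSD (lost without any of 9 libraries) and RAN in TWSD (lost without any of 5) are those given above.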

Other observations

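KPNA7, a member of the importin alpha family known from mammalian eggs and early embryos, was singled out after its values were seen. It ran from 0 CPM in T 6 to 214 in T 11 among T libraries and from 0.06 to 48.7 among WSD libraries, and stood at 68.5 in TWSD 2 and 8.20 in TWSD 3, against 8.46 (C 1), 3.32 (C 2), 0.05 (C 8), 0.11 (C 11) and 0.42 CPM (C 12) in controls. C 8, C 11 and C 12 were thus under 1 CPM. So were T 1, T 6, WSD 3, WSD 4 and WSD 8. The gene passed in no comparison by edgeR.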
